A study of Mus musculus with 12 samples.

Results

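The aminoacyl-tRNA synthetases are the enzymes that load each amino acid onto its tRNA. Of 36 listed genes, 20 encode cytosolic enzymes or their subunits and 16 encode mitochondrial enzymes, which carry the suffix 2. They were matched by current or older symbol to the array annotation, and a gene with several probe sets was represented by the brightest over the 12 arrays. In this way 34 of the 36 were measured, out of 22180 genes with a probe set of their own and 41345 probe sets in all. These were 18 cytosolic and all 16 mitochondrial members. Aars has a probe set only in common with Exosc6, and Dars was not matched, so that neither is given a value here. The members are a fixed list of genes, chosen with earlier results of these data known, and none was left out for a low signal.

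A synthetase joins an amino acid to the end of its tRNA at the cost of ATP, and many of the enzymes remove wrongly joined amino acids again. The cytosol and the mitochondrion mostly use separate sets of enzymes, all of them encoded in the nucleus, whereas Gars and Kars serve both compartments from a single gene. Several cytosolic enzymes (those of Eprs, Iars, Lars, Mars, Qars, Rars, Kars and Dars) sit together in a multi-synthetase complex on the scaffold proteins Aimp1, Aimp2 and Eef1e1. Many cytosolic synthetase genes are known as targets of Atf4, the transcription factor that is translated when amino acids run short.

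RNA was measured on Affymetrix Mouse Gene 2.0 ST arrays, with 3 arrays in each of 4 groups. All cells were the male E14.wt mouse embryonic stem cells (mESCs) of the 129P2/OlaHsd background, grown in serum and leukemia inhibiting factor and taken off CD1 feeder cells for a single passage, and were infected with a lentiviral pLKO.1 shRNA vector. Experiment A compared a non-target shRNA (shcontrol_A) with an shRNA against Msl1 (shMsl1_A), a subunit of the MSL complex, and experiment B the same non-target shRNA (shcontrol_B) with an shRNA against Nsl1 (shNsl1_B), the subunit of the NSL complex encoded by Kansl1. Both complexes carry the histone acetyltransferase Mof, and each knockdown rests on 1 shRNA clone. The study describes its replicas as independent and biological, but the labels do not name separate cultures, so that the p-values cover the spread from array to array only, and the small number of arrays limits the precision.

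The labels were first set against the targeted genes. The log2 signal of Msl1 was 8.56, 6.90 and 8.62 on the arrays labelled shcontrol_A 1, 2 and 3, and 6.77, 9.18 and 7.64 on those labelled shMsl1_A 1, 2 and 3. The library labelled shcontrol_A 2 thus lay with the low values and the library labelled shMsl1_A 2 was the highest. In the authors' own listing of regulated genes the values of both libraries stand under the opposite group name. The groups were kept as labelled, and the results that rest on experiment A are given with all arrays. For the class medians and most of the genes given a fold change they are also given without these libraries. Kansl1 was at 9.14, 9.36 and 9.52 on the shcontrol_B arrays and at 8.47, 8.92 and 9.30 on the shNsl1_B arrays, lower in each of the 3 same-numbered pairs, with overlapping groups.

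Of 10 markers of embryonic stem cells, 9 had signals above 7 on every array, and Dppa5a lay near 5. Several of the markers of the feeder fibroblasts also had high signals, and these were not even between arrays. The log2 of the summed signal of the 12 fibroblast markers was 11.85 to 12.31 in shcontrol_A, 12.13 to 13.54 in shMsl1_A, 12.17 to 13.16 in shcontrol_B and 11.63 to 13.16 in shNsl1_B. Col1a1, the main chain of fibrillar collagen, ranged from 7.28 to 9.93 and Acta2, smooth muscle actin, from 10.50 to 12.49. Other markers of the list were low, with Lum between 3.40 and 3.77 on all arrays. Dcn lay at 5.09 to 5.69 and S100a4 at 4.535 to 5.81, and Postn ranged from 4.01 to 9.24. Acta2 and Tagln (9.65 to 12.01) were the brightest of the list on every array and made up most of the sum. The stem cell markers summed to 13.72 to 14.58 over the 12 arrays.

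Most cytosolic synthetases rose and fell together from array to array, within shMsl1_A, shcontrol_B and shNsl1_B as well as between groups. Not all did so. Qars was at 11.15, 11.005 and 11.15 on shMsl1_A 1, 2 and 3 and was lowest on shNsl1_B 1 (10.53). For each gene the deviation from its own mean over the 12 arrays was taken, and the median over the 18 cytosolic members was 0.29, 0.19 and 0.22 log2 units on shcontrol_A 1, 2 and 3. On shMsl1_A 1, 2 and 3 it was 0.40, -0.26 and -0.25. The first shMsl1_A array was thus the highest of all 12, and the other two were among the lowest.

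In experiment B the cytosolic median was 0.15, -0.21 and -0.26 on shcontrol_B 1, 2 and 3, and 0.20, -0.15 and -0.30 on shNsl1_B 1, 2 and 3. In both groups of this experiment the first array was high and the other two were low. On the 3 shcontrol_A arrays, shMsl1_A 1 and shcontrol_B 1, between 16 and 18 of the 18 cytosolic members were above their own mean, and on shNsl1_B 1 this held for 14. On the remaining 6 arrays it held for 1 to 3 of the 18. Levels of different members were not tested against each other, since signals of different probe sets are not on a common scale.

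The mitochondrial enzymes followed this pattern less closely, as a description with no test. Their median deviation was 0.16, -0.011 and 0.20 on shcontrol_A 1, 2 and 3, and -0.0079, -0.042 and -0.042 on shMsl1_A 1, 2 and 3. It was 0.090, -0.052 and -0.10 on shcontrol_B 1, 2 and 3, and 0.0054, -0.25 and -0.27 on shNsl1_B 1, 2 and 3. Between 3 and 14 of the 16 were above their own mean on any array. The mitochondrial class was at its lowest on shNsl1_B 2 and 3, and shMsl1_A 1, the highest array of the cytosolic class, lay near its middle.

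**Figure D1:**
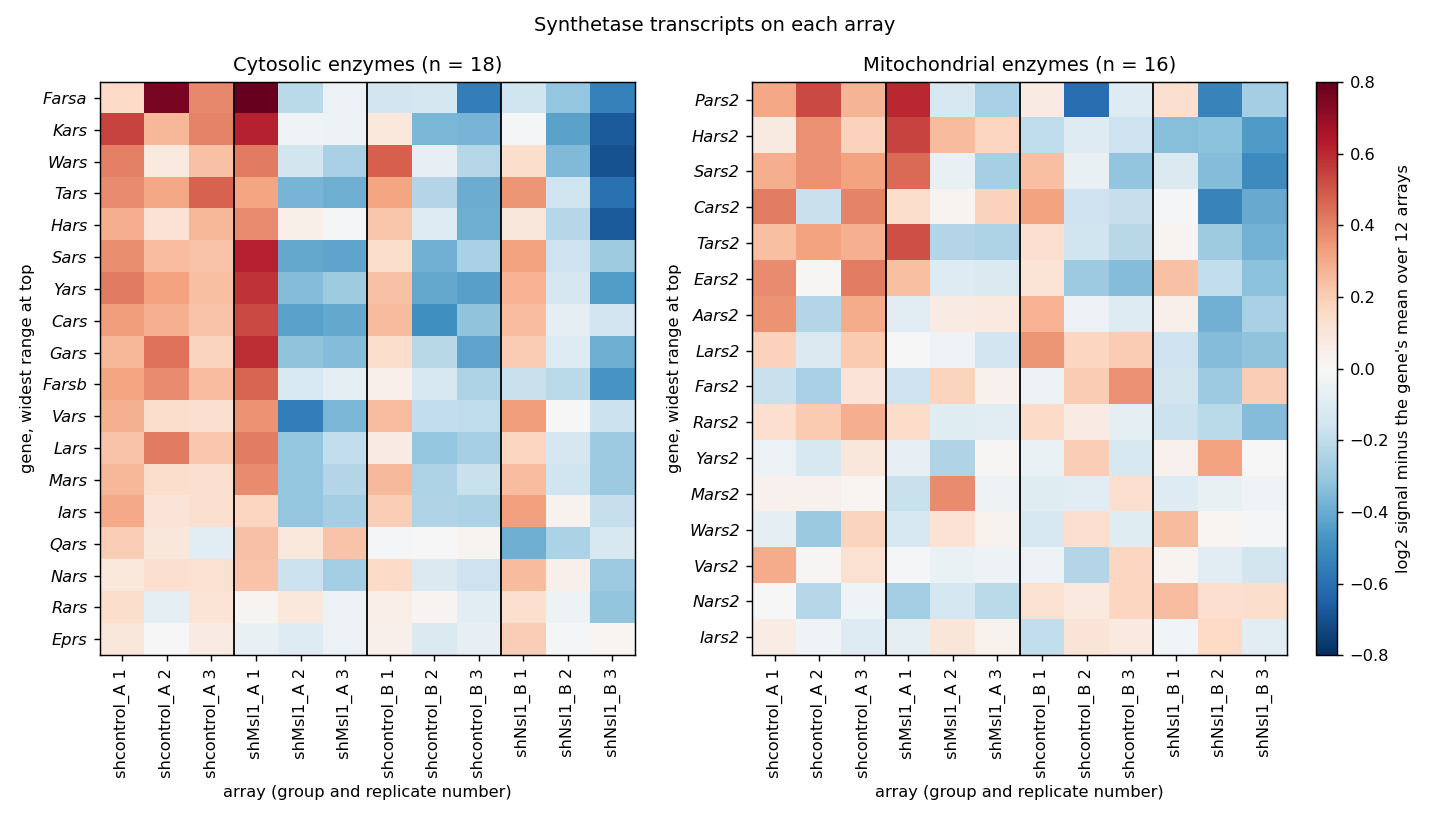
Log2 signal of each synthetase minus its own mean over the 12 arrays, in colour, for 18 cytosolic (left) and 16 mitochondrial enzymes (right), with the gene of widest range at the top and black lines between the 4 groups. Most cytosolic rows are red on shcontrol_A 1 to 3, shMsl1_A 1, shcontrol_B 1 and shNsl1_B 1 and blue on the other 6 arrays, while the mitochondrial rows share no single pattern.

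Averaged by group, the cytosolic median deviation was 0.23 ± 0.048 (SD, n = 3) in shcontrol_A, -0.037 ± 0.38 (SD, n = 3) in shMsl1_A, -0.11 ± 0.22 (SD, n = 3) in shcontrol_B and -0.084 ± 0.26 (SD, n = 3) in shNsl1_B. That of the mitochondrial class was 0.12 ± 0.11, -0.031 ± 0.020, -0.021 ± 0.099 and -0.17 ± 0.15 (SD, n = 3 each) in the same order. For the cytosolic enzymes the spread between the arrays of a group was thus larger than any difference between shMsl1_A, shcontrol_B and shNsl1_B, and shcontrol_A was the group whose arrays agreed most closely.

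Other genes moved on the same arrays. The list of 18 amino acid response genes held Atf4, its targets, amino acid transporters, and the kinase gene Eif2ak4 with its coactivator gene Gcn1l1. Its median deviation was 0.28 on shMsl1_A 1 and -0.27 and -0.19 on shMsl1_A 2 and 3. Chac1, which breaks down glutathione and is a target of Atf4, was at 8.44, 5.70 and 6.31 on these arrays and at 7.98, 8.27 and 7.82 on shcontrol_A. Psat1, an enzyme of serine synthesis, was at 10.93, 9.51 and 9.58 against 10.82, 10.75 and 10.67. The fibroblast markers mostly went the other way. Of the 12, 1, 8 and 8 were above their own 12-array mean on shMsl1_A 1, 2 and 3. Thy1 was highest on the first of these arrays (7.36, 6.93 and 7.25). The summed log2 signals of the list, mostly Acta2 and Tagln, were 12.13, 13.54 and 13.34 on them. The same sums were 12.17, 13.16 and 12.87 on shcontrol_B 1, 2 and 3 and 11.63, 13.025 and 13.16 on shNsl1_B 1, 2 and 3. In each of these 3 groups the array with the highest cytosolic median was the one with the lowest fibroblast sum. In shcontrol_A, with sums of 12.31, 11.85 and 12.27, it was the reverse, the first array having the highest and the second the lowest of both. The sums of the stem cell markers were 14.58, 13.72 and 13.91 on shMsl1_A 1, 2 and 3, again highest on the first array. The part of these genes, or of the cells they mark, in the levels of the synthetases was not tested, and in bulk RNA fewer cells of a type and less RNA per cell cannot be told apart.

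**Figure D2:**
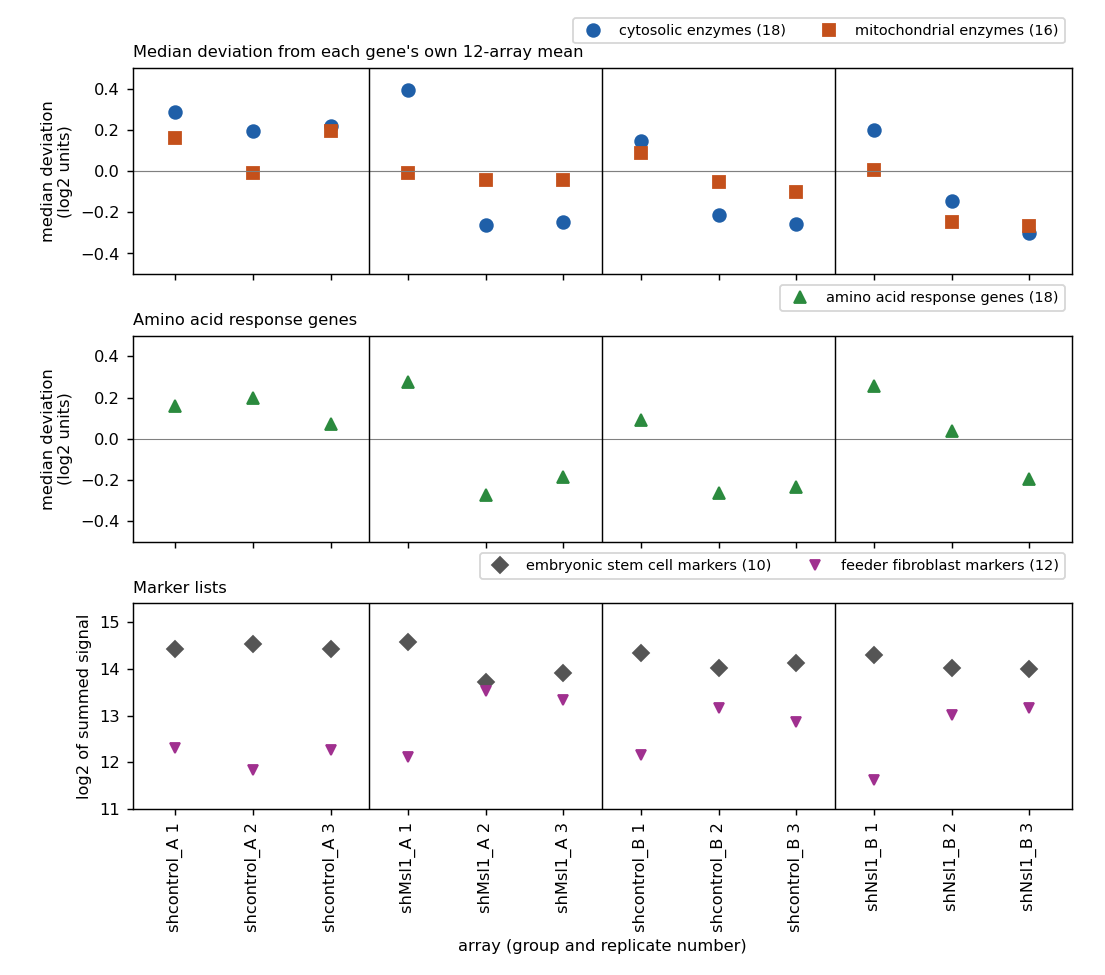
Top and middle, the median deviation from each gene's own 12-array mean (log2 units) on each array for the cytosolic and mitochondrial enzymes and for the amino acid response genes, and bottom, the log2 of the summed signal of the stem cell and fibroblast markers. In shMsl1_A, shcontrol_B and shNsl1_B the array numbered 1 has the highest cytosolic median (0.40, 0.15 and 0.20) and the lowest fibroblast sum (12.13, 12.17 and 11.63) of its group, whereas in shcontrol_A it has the highest of both (0.29 and 12.31).

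Members differed in how far they moved. The range of log2 signal over the 12 arrays had a median of 0.98 over the cytosolic members, and went from 0.31 for Eprs to 1.38 for Farsa. Eprs encodes a double enzyme for glutamate and proline, and Farsa and Farsb encode the subunits of the enzyme for phenylalanine. Wide ranges were also seen for Kars (1.29, lysine), Wars (1.18, tryptophan), Tars (1.07, threonine), Hars (1.05, histidine), Sars (1.04, serine), Yars (1.03, tyrosine), Cars (1.02, cysteine) and Gars (1.02, glycine). Narrow ranges were seen for Rars (0.46, arginine), Nars (0.54, asparagine) and Qars (0.63, glutamine). Of the measured members of the multi-synthetase complex, Eprs, Rars, Qars, Iars (0.64), Mars (0.69) and Lars (0.725) all had ranges below the class median. Kars was the only one of them with a wide range.

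Over the mitochondrial members the median range was 0.68, from 0.35 for Iars2 (isoleucine) to 1.21 for Pars2 (proline). Pars2 and the enzymes for serine (Sars2) and threonine (Tars2) were each highest on shMsl1_A 1, at 7.99, 9.21 and 9.04. For Tars2 the values on shMsl1_A 2 and 3, 8.29 and 8.28, were near those on shcontrol_B 2 and 3, 8.37 and 8.31, and the same arrays were low for its cytosolic counterpart Tars. A few mitochondrial members thus moved as the cytosolic class did, whereas Iars2, Wars2 (range 0.55) and Nars2 (range 0.52) stayed within narrow ranges. Wars2 (6.36 to 6.91) and Nars2 (7.51 to 8.03) had low signals, while Iars2 lay at 9.05 to 9.40. Pars2, with the widest range, lay at 6.77 to 7.99. The part of the signal level in the ranges was not tested.

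Since most cytosolic genes moved together, the promoters of both classes were read for the letters TGATGNAA. These are the core of the C/EBP-ATF response element that Atf4 binds together with a C/EBP protein. The windows came from RefSeq (build GRCm38.p6) and covered 250 bases before to 50 bases after the start of each gene, read on both strands. A window was at hand for 13 cytosolic and 14 mitochondrial members. The letters were found in 5 of the 13 (Aars, Gars, Iars, Tars and Yars) and in 0 of the 14, beside 1219 of all 27025 genes with a window (4.51%) and 3.97% of all windows. Each match of the 4 measured genes is given with 11 bases on either side, 5′ to 3′ on the strand of the gene, and the capitals mark the match, which reads TTNCATCA where it lies on the opposite strand.
Gars, chr6:55037960-55037989, plus strand: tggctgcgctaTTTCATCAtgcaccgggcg
Iars, chr13:49682126-49682155, plus strand: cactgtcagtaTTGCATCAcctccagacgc
Tars, chr15:11399655-11399684, minus strand: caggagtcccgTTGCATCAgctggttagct
Yars, chr4:129189895-129189924, plus strand: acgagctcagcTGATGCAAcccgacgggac
The match began 30 and 15 bases before the start of Gars and Tars, and at base 8 and base 4 of the transcribed part of Iars and Yars. The core was the same 8 letters in Iars, Tars and Yars, with another base at the open position in Gars. The ranges of these genes over the 12 arrays were 1.02 for Gars, 0.64 for Iars, 1.07 for Tars and 1.03 for Yars, whereas Farsa and Kars, the widest of all, had a window without the letters. A match is a stretch of letters and no measured binding, and no factor was assayed at these windows.

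The first comparison asked what the loss of Nsl1 did to the synthetases. In the cytosolic class 9 of 18 members were higher and 9 lower in shNsl1_B than in shcontrol_B, with a median log2 fold change of 0.016, beside 0.012 over all probe sets. This balance depended on single arrays. Without shcontrol_B 1, 12 of 18 were higher (median 0.15), on leaving out single arrays the median lay between -0.12 and 0.16, and it was -0.0080 with arrays centred on their medians. In the mitochondrial class 11 of 16 members were lower and the median was -0.089, with a range from -0.21 (without shNsl1_B 1) to -0.057. No member passed the test (limma, adjusted p under 0.05), and of all probe sets 0% did so (0 by limma, with or without the replicate number as a block). At an unadjusted p under 0.05, 2175 of the 41345 probe sets were counted, and among the members 1 of 18 cytosolic and 3 of 16 mitochondrial.

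Lars2, the mitochondrial enzyme for leucine (probe set 17523574), stood furthest from its controls. Its log2 signal was 7.46, 7.28 and 7.30 on the shcontrol_B arrays and 6.94, 6.76 and 6.78 on the shNsl1_B arrays. All knockdown arrays were below all control arrays, and the same-numbered pairs differed by -0.52, -0.52 and -0.52. The fitted log2 fold change was -0.52 (SE 0.099, unadjusted p = 0.0019, limma adjusted p = 0.485), which is 69.8% of the control signal. With the replicate number as a block its adjusted p was 0.113, so that it did not pass in either fit. In experiment A Lars2 was at 7.29, 6.98 and 7.31 in shcontrol_A and at 7.10, 7.07 and 6.95 in shMsl1_A, where the groups overlapped.

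Rars2, Hars2 and Qars also had groups without overlap, all lower after Nsl1 knockdown. Rars2, the mitochondrial enzyme for arginine, was at 9.41, 9.32 and 9.18 in shcontrol_B and at 9.08, 9.04 and 8.91 in shNsl1_B (log2 fold change -0.29, SE 0.10, limma adjusted p = 0.856). Hars2, for histidine, was at 7.59, 7.68 and 7.62 against 7.45, 7.46 and 7.34 (log2 fold change -0.22, SE 0.084, limma adjusted p = 0.913). Qars, the cytosolic enzyme for glutamine, was at 10.91, 10.92 and 10.94 against 10.53, 10.67 and 10.79 (log2 fold change -0.26, SE 0.098, limma adjusted p = 0.898). The control values of Qars lay within 0.03 of each other, and its knockdown values spread more widely. In all, 4 of 34 members lay below their controls on every array and none above, beside 5.64% of all probe sets below and 4.66% above.

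**Figure D3:**
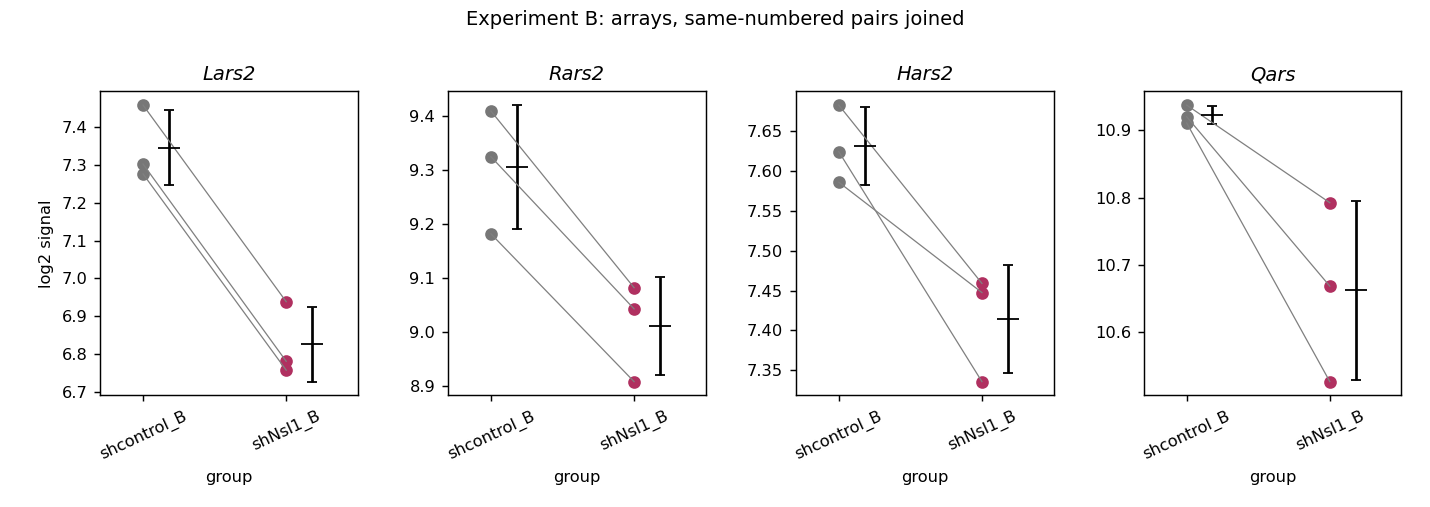
Log2 signal of Lars2, Rars2, Hars2 and Qars on the 3 shcontrol_B and 3 shNsl1_B arrays (points), with same-numbered pairs joined and the group mean with its SD beside the points. Each line falls, and in each panel the lowest control array lies above the highest knockdown array.

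Same-numbered arrays of experiment B deviated together, so that the pairs were also read one by one. Of the mitochondrial members, 8 of 16 were lower in all 3 pairs (Aars2, Cars2, Fars2, Hars2, Lars2, Rars2, Sars2 and Tars2) and 2 were higher (Ears2 and Yars2). Of the cytosolic members, 5 of 18 were lower in all 3 pairs (Farsb, Hars, Kars, Qars and Wars) and 4 were higher (Eprs, Gars, Iars and Vars). Over all probe sets, 17.8% were lower and 18.6% higher in all 3 pairs. The median difference of the mitochondrial class was -0.053, -0.13 and -0.17 in pairs 1, 2 and 3, and that of the cytosolic class 0.040, 0.095 and -0.068. The mitochondrial median was thus below 0 in each pair, least so in the first, and the cytosolic median changed side between pairs.

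Members with larger fitted changes but overlapping groups were Wars, at 11.16, 10.61 and 10.45 in shcontrol_B and 10.82, 10.32 and 9.98 in shNsl1_B, and Cars2, at 9.12, 8.64 and 8.62 against 8.80, 8.27 and 8.40. For Wars the log2 fold change was -0.36 (SE 0.27), and for Cars2 it was -0.31 (SE 0.20). Both groups of Wars spanned more than the difference between them, but its same-numbered pairs differed by -0.34, -0.29 and -0.47. Those of Cars2 differed by -0.33, -0.37 and -0.22. With the replicate number as a block the SE was 0.083 for Wars (limma adjusted p = 0.169). For Cars2 it was 0.082 (limma adjusted p = 0.199), so that neither passed. The largest values above the controls were 0.20 (SE 0.22) for Cars and 0.16 (SE 0.19) for Iars in the cytosol, and 0.11 (SE 0.12) for Wars2 in the mitochondrion. By fold change rank ordering statistics (FCROS), the method of the study, which ranks fold changes of array pairs without adjusting for the number of probe sets, Lars2 and Wars were counted as lower, 2 of 34 members beside 3.36% of all probe sets.

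Genes that work beside the synthetases were read in the same comparison. All 11 measured tRNA-charging partners had values below 0, with a median of -0.30 that ranged from -0.42 to -0.16 on leaving out single arrays, and 0 passed the test. Mtfmt, which formylates the methionine of the mitochondrial initiator tRNA, was at 8.55, 8.11 and 8.11 in shcontrol_B and 7.97, 7.70 and 7.69 in shNsl1_B (log2 fold change -0.47, SE 0.16). Its groups did not overlap. Of 10 mitochondrial translation factors 9 were below 0 (median -0.25, ranging from -0.37 to -0.14, 0 passing), among them the release factor Mtrf1, at 6.86, 6.69 and 6.55 against 6.24, 6.20 and 5.92 (log2 fold change -0.58, SE 0.13). Of 10 genes of mitochondrial tRNA processing and modification 7 were below 0 (median -0.24, ranging from -0.33 to -0.060 and at -0.099 without shcontrol_B 1, 0 passing), with Hsd17b10, a subunit of mitochondrial RNase P, at -0.40 (SE 0.14) and Trmu, which thiolates tRNAs, at -0.25 (SE 0.095).

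The cytosolic elongation factors had a median of -0.0020 over 8 genes, with 4 above and 4 below 0 and 0 passing. Of the 18 amino acid response genes 14 were above 0 (median 0.069, ranging from 0.041 to 0.22 on leaving out single arrays and at 0.19 without shcontrol_B 1, 0 passing). Ddit3, the stress factor known as CHOP, was at 7.71, 7.97 and 7.67 in shcontrol_B and at 8.43, 8.47 and 8.09 in shNsl1_B (log2 fold change 0.55, SE 0.14), and its groups did not overlap. Eif2ak4, the kinase that senses uncharged tRNA, was at 7.60, 7.31 and 7.42 against 7.16, 6.80 and 7.09 (log2 fold change -0.43, SE 0.14). Vldlr, a lipoprotein receptor gene, was at 5.61, 5.61 and 5.80 against 6.23, 6.44 and 6.01. The cystine transporter gene Slc7a11 was at 4.43, 4.32 and 4.08 against 4.89, 5.00 and 4.46. Of the 18 genes 3 (Ddit3, Vldlr and Slc7a11) thus lay above their controls on every array, and 1 (Eif2ak4) lay below. Over all probe sets the shares were 4.66% above and 5.64% below. Of the fibroblast markers 5 of 12 were above 0 and 0 passed. Their values ran from -0.37 to 1.12 with a median of -0.043, whose sign turned on leaving out single arrays (-0.21 to 0.30).

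**Figure D4:**
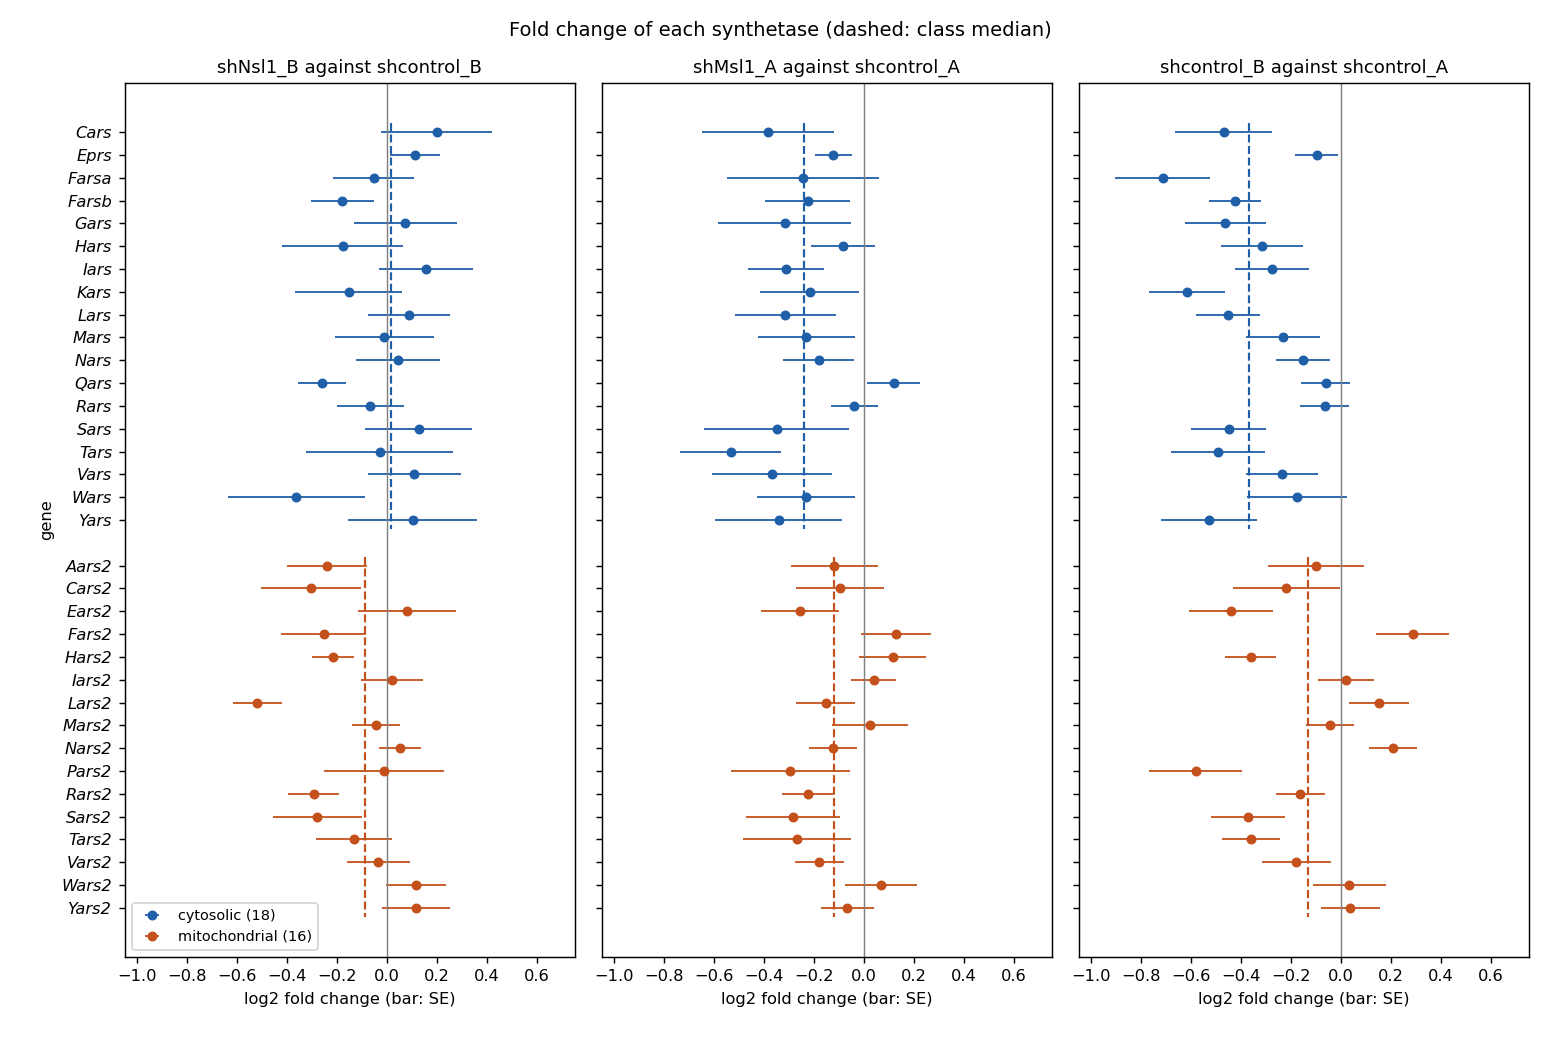
Log2 fold change of each synthetase with its standard error in the 3 comparisons, with cytosolic enzymes above and mitochondrial enzymes below, and a dashed line at each class median. The cytosolic median is 0.016 for Nsl1 knockdown, -0.24 for Msl1 knockdown as labelled and -0.37 between the control groups, and the mitochondrial median is -0.089, -0.12 and -0.13.

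The second comparison asked the same of Msl1, with the labels as deposited. Here 17 of 18 cytosolic members were lower in shMsl1_A (median log2 fold change -0.24) and 11 of 16 mitochondrial members (median -0.12), beside a median of -0.0037 over all probe sets. No member passed the test, as was so for 0% of all probe sets, and 3163 of all probe sets had an unadjusted p under 0.05, among them 1 cytosolic and 0 mitochondrial members. FCROS counted 0 of 34 members as lower or higher, beside 1.35% of all probe sets lower. The smallest adjusted p among the members was 0.622 in either class. In the same fit 10 of 10 stem cell markers were below 0 (median -0.31) and 11 of 12 fibroblast markers above 0 (median 0.32), with 0 passing in either list, and their part in the synthetase values was not tested. Without the libraries labelled shcontrol_A 2 and shMsl1_A 2 the synthetase medians were -0.14 (16 of 18 lower, with Farsa at 0.12 in place of -0.25) and -0.16 (15 of 16 lower), those of the stem cell and fibroblast markers were -0.17 and 0.22, and 0 members passed. The sign of the class medians did not rest on these 2 libraries, whereas their order did.

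The lowest value was that of Tars, the cytosolic enzyme for threonine (probe set 17316021), with log2 signals of 10.69, 10.63 and 10.79 in shcontrol_A and 10.63, 9.95 and 9.93 in shMsl1_A. Its log2 fold change was -0.53 (SE 0.20, limma adjusted p = 0.622), and shMsl1_A 1 lay at the level of the lowest control. Without both libraries it was -0.46. Sars showed the same arrangement more widely, at 11.37, 11.25 and 11.23 against 11.63, 10.59 and 10.58 (log2 fold change -0.35, SE 0.29). In Sars the first knockdown array was above all controls and the other two were well below them, and without both libraries its log2 fold change was -0.20. The exception among the cytosolic members was Qars, at 11.11, 11.01 and 10.83 against 11.15, 11.005 and 11.15 (log2 fold change 0.12, SE 0.10, and 0.18 without both libraries).

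Groups without overlap were found for 2 of 34 members, both lower, beside 5.78% of all probe sets below and 6.38% above. They were Eprs, at 10.75, 10.66 and 10.72 in shcontrol_A and 10.60, 10.56 and 10.61 in shMsl1_A (log2 fold change -0.12, SE 0.074), and Vars2, the mitochondrial enzyme for valine, at 8.04, 7.75 and 7.86 against 7.73, 7.68 and 7.70 (log2 fold change -0.18, SE 0.098). Both differences were small beside that of Tars, and without both libraries they were -0.13 and -0.24. Of the mitochondrial members, Pars2 had the lowest value at -0.30 (SE 0.24) and Fars2, for phenylalanine, the highest at 0.13 (SE 0.14). Without both libraries Pars2 was at -0.12 and Fars2 at -0.032. Gars was at -0.32 (SE 0.27) and Kars at -0.22 (SE 0.20), and without both libraries at -0.099 and -0.18.

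The count of members passing the test depended on the single array shMsl1_A 1. Without it 15 members were called lower and 0 higher, 12 of 18 cytosolic and 3 of 16 mitochondrial (Pars2, Sars2 and Tars2), beside 6.02% of all probe sets lower and 10.4% higher. Tars was then at -0.77 (limma adjusted p = 0.00601) and Cars at -0.70 (limma adjusted p = 0.00629). Not called were Eprs, Farsa, Hars, Qars, Rars and Wars. The remaining arrays labelled as knockdown, shMsl1_A 2 and 3, include the library with the highest Msl1 signal (9.18). The controls of this fit include shcontrol_A 2, with a low Msl1 signal (6.90). Each side thus held higher and lower Msl1 signals. On shMsl1_A 2 and 3 the fibroblast sum was 13.54 and 13.34. In that fit 5 of 12 fibroblast markers were called higher and 8 of 18 amino acid response genes lower, and 5 of 10 stem cell markers were called lower. The part of these genes in the lower synthetase signals was not tested.

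**Figure D5:**
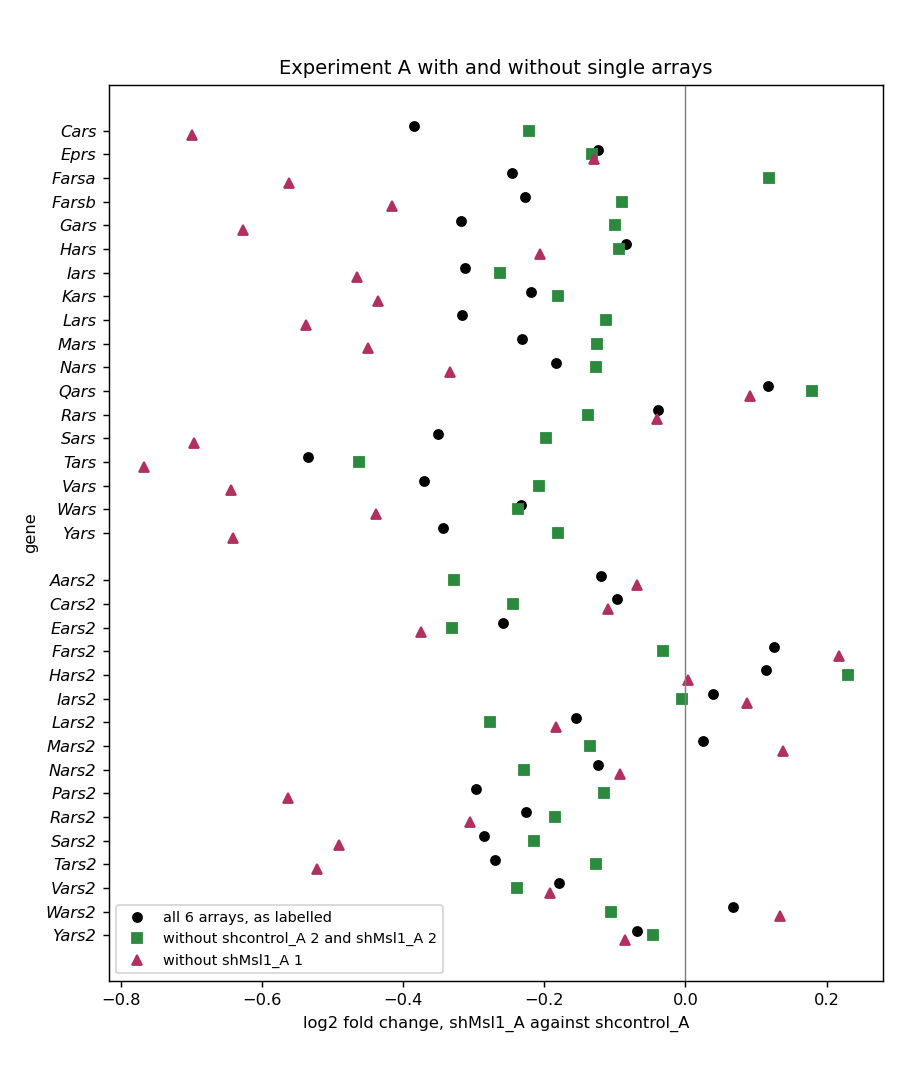
Log2 fold change of each synthetase between shMsl1_A and shcontrol_A with all 6 arrays (circles), without the libraries labelled shcontrol_A 2 and shMsl1_A 2 (squares) and without shMsl1_A 1 (triangles). Leaving out shMsl1_A 1 moves the cytosolic median from -0.24 to -0.46, and leaving out both libraries moves it to -0.14.

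Among the other lists with all arrays, 10 of 11 charging partners were below 0 (median -0.25, and -0.23 without both libraries, 0 passing). Tarsl2, a second threonyl-tRNA synthetase of the cytosol, was at 6.88, 6.71 and 7.11 in shcontrol_A and 6.50, 6.40 and 6.42 in shMsl1_A, without overlap (log2 fold change -0.46, SE 0.12, and -0.53 without both libraries). The scaffold gene Aimp1 was at 9.25, 9.24 and 9.30 against 9.11, 8.95 and 8.96 (log2 fold change -0.25, SE 0.082, and -0.23 without both libraries), again without overlap. The median was -0.14 over the mitochondrial translation factors, -0.19 over mitochondrial tRNA processing and modification and -0.13 over the cytosolic elongation factors, with 0 passing in each list. Without both libraries these medians were -0.13, -0.13 and -0.070, and that of the amino acid response genes was -0.068 in place of -0.18. Atf4 was at 8.65, 8.71 and 8.70 against 8.56, 8.32 and 8.42 (log2 fold change -0.25, SE 0.092, and -0.19 without both libraries).

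The effects of the knockdowns were then set against each other in 1 fit of all 12 arrays. No synthetase passed this test of the difference, as was so for all but 4 probe sets (0.00967%). Qars had the smallest p among the members, with the effect of Nsl1 knockdown lower than that of Msl1 knockdown by a log2 difference of -0.38 (SE 0.14, limma adjusted p = 0.678), followed by Lars2 (-0.36, SE 0.15, limma adjusted p = 0.745). The median difference was 0.23 over the cytosolic members and -0.0072 over the mitochondrial members. Without both libraries these medians were 0.17 and 0.056, Qars was at -0.44 and Lars2 at -0.24, and 0 members passed. The lower cytosolic median under Msl1 knockdown was thus not shown to differ from that under Nsl1 knockdown for any single enzyme.

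The control groups, given the same non-target shRNA in separate experiments, show how far the synthetases moved between experiments. All 18 cytosolic members were lower in shcontrol_B than in shcontrol_A (median log2 fold change -0.37) and 10 of 16 mitochondrial members (median -0.13), beside -0.035 over all probe sets. Without the library labelled shcontrol_A 2 the medians were -0.38 and -0.21, the latter with 12 of 16 lower. No member passed the test, whereas 5.41% of all probe sets did, and at an unadjusted p under 0.05 there were 9 of 18 cytosolic and 5 of 16 mitochondrial members, beside 12100 of the 41345 probe sets. FCROS counted 0 members, beside 0.227% of all probe sets lower. These groups also served as the controls of both knockdown comparisons, so that the values are not independent of those above.

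The smallest adjusted p belonged to Farsb, at 10.96, 11.03 and 10.90 in shcontrol_A and 10.69, 10.52 and 10.40 in shcontrol_B (log2 fold change -0.43, SE 0.10, limma adjusted p = 0.0631). Kars was at 11.57, 11.29 and 11.42 against 11.11, 10.66 and 10.65 (log2 fold change -0.62, SE 0.15, limma adjusted p = 0.0659). Farsa, the other subunit of the phenylalanine enzyme, was at 9.57, 10.18 and 9.80 against 9.27, 9.28 and 8.86 (log2 fold change -0.71, SE 0.19, limma adjusted p = 0.075). In all 3 genes the groups did not overlap, and without shcontrol_A 2 the values were -0.39, -0.68 and -0.55. When probe sets without a single gene symbol were left out of the fit, these 3 members passed, beside 12.4% of the probe sets tested.

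On every array 7 of 18 cytosolic members (Farsa, Farsb, Gars, Kars, Lars, Sars and Yars) and 4 of 16 mitochondrial members (Hars2, Pars2, Sars2 and Tars2) were lower in shcontrol_B, beside 22% of all probe sets. Nars2 was the only member higher on every array, at 7.79, 7.56 and 7.75 against 7.90, 7.86 and 7.95, beside 13.9% of all probe sets. Nars2 has a second probe set, and by the mean of both its log2 fold change was -0.037 rather than 0.21 (0.14 without shcontrol_A 2). Gars was at 11.36, 11.53 and 11.27 against 11.23, 10.87 and 10.67 (log2 fold change -0.46, SE 0.16, and -0.39 without shcontrol_A 2). Hars2 differed from most mitochondrial members in being high on all 6 arrays of experiment A, between 7.86 and 8.33, and low on all 6 of experiment B, between 7.34 and 7.68.

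This comparison also rested on a single array. Without shcontrol_B 1, 12 cytosolic members and 4 mitochondrial members were called lower, beside 10.7% of all probe sets. Leaving out any other single array, shcontrol_A 2 among them, or the dim probe sets gave 0 called among all probe sets, members and other genes alike. With all arrays, 2 of 18 amino acid response genes were called lower, Atf4 at 8.65, 8.71 and 8.70 against 8.27, 8.01 and 7.997 (log2 fold change -0.60, SE 0.10, limma adjusted p = 0.0371) and the cystine transporter gene Slc7a11. Further calls were Eif5a, a cytosolic elongation factor (log2 fold change -0.72, SE 0.12, limma adjusted p = 0.0349), Hsd17b10 (log2 fold change -0.85, SE 0.12, limma adjusted p = 0.0288) and the fibroblast marker Col3a1, which was higher (log2 fold change 0.76, SE 0.16, limma adjusted p = 0.0492). All of these calls were lost in the settings just named that gave 0. The genes called with all arrays thus included Atf4 but none of the synthetases. Kars (-0.62) and Farsa (-0.71) had fitted changes no smaller than that of Atf4, and a difference from Atf4 was not tested. Of the 12 fibroblast markers 11 were above 0 (median 0.47), and all 12 were so without shcontrol_A 2 (median 0.33). Their part in these values was not tested.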

How the data were processed

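Robust multi-array average (RMA) in Affymetrix Expression Console 1.1 was used by the authors for background correction, quantile normalization and summary of the probes. The deposited values are log2 signals, used as deposited with no filter. The platform annotation gave 1 gene symbol to 23521 probe sets, several to 1820 and none to 16004. Array medians lay between 5.58 and 5.78.

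Comparisons were fitted with limma 3.58.1 in R 4.3.3 (lmFit, then eBayes) and tested two-sided. Adjustment followed Benjamini and Hochberg across the 41345 probe sets, with 0.05 as the threshold. The procedure was tested on simulated data. The members and lists were chosen with earlier results of these data known, so that lists were described by counts and medians beside all probe sets and received no test of their own. Named are members that passed a test, had groups without overlap or had the smallest p or largest change in a comparison and class, together with Gars, Kars and the targeted genes, and 2 to 4 genes of each other list with the smallest p. Some values per array were shown for other genes to describe the pattern, chosen after they were seen.

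Same-numbered arrays of experiment B had correlated deviations from their group means (r = 0.767, 0.326 and 0.704 over probe sets) and were taken as pairs. Those of experiment A (r = 0.045, -0.226 and 0.21) were not. The label of each array was also compared with the signals that the authors list for regulated genes. All matched within 0.001, and 2 arrays of experiment A carried the opposite group name. FCROS was run with 9 array pairs, a trim of 0.25 and limits of 0.025 and 0.975. The other alternatives were centring of arrays, a filter on dim probe sets, probe sets with 1 symbol, the mean of a gene's probe sets, a trended and robust variance, all 12 arrays in a fit, and leaving out arrays. Promoter windows and gene names came from RefSeq (GRCm38.p6). No source used here names the build behind the array annotation.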

Additional observations from a re-analysis of the deposited data

How the results depend on the processing

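For the number of probe sets called between shNsl1_B and shcontrol_B, 0 in the analysis reported, other settings gave 2 (probe sets with 1 symbol), 55 (all 12 arrays in the fit) and 2155 (FCROS). With the replicate number as a block it remained at 0, and the block changed the call of no member in either knockdown comparison. For shMsl1_A against shcontrol_A (0), FCROS gave 1247, and leaving out single arrays gave 0 to 6771, the highest without shMsl1_A 1. For shcontrol_B against shcontrol_A (2238), the filter on dim probe sets gave 0, FCROS 125, leaving out both libraries with Msl1 against the label 0, and leaving out single arrays 0 to 8382, the highest without shcontrol_B 1. For the difference of the knockdown effects (4), centring of arrays, the trended variance, the replicate block and leaving out both libraries each gave 0, the dim filter 1, probe sets with 1 symbol 20 and leaving out single arrays 0 to 3. No block was fitted to the control comparison, whose arrays were not paired.

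The cytosolic median under Nsl1 knockdown ranged from -0.12 to 0.16 on leaving out single arrays and was -0.0080 with arrays centred. The other class medians of the knockdown and control comparisons kept their sign in the settings run. Beyond the spread between arrays only the mitochondrial median under Nsl1 knockdown moved, from -0.206 (without shNsl1_B 1) to -0.0574 on leaving out single arrays. For 51 results of single members, 650 recomputed values kept direction and side of the threshold, 23 passed the test where the reported one did not, and 9 changed sign. After Nsl1 knockdown, on leaving out single arrays, Sars ranged from -0.0574 (without shNsl1_B 1) to 0.281, Ears2 from -0.0878 to 0.222 and Gars from -0.0784 to 0.226, the latter genes falling below 0 without shNsl1_B 1 or shcontrol_B 3 (-0.0069 and -0.0559). After Msl1 knockdown Fars2 was at -0.0319 and Wars2 at -0.105 without both libraries, and Wars2 ranged from -0.0489 (without shcontrol_A 2) to 0.189 on leaving out single arrays. Nars2 between the controls was at -0.0371 by the mean of its probe sets. The cause was not tested. With 3 arrays in a group, and 2 when an array is left out, the precision is low.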
